A study of Bos taurus with 8 samples.

Results

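The transcripts described here are 10 genes of epithelial cells and of the cell surface: the keratins KRT8, KRT18 and KRT19, the adhesion proteins EPCAM and CDH1, the membrane proteins UPK1B, TMEM176A and TMEM176B, the enzyme ALDH1A1 and the secreted protein APOA1. They were named as a list, and all 10 are among the 16606 genes of the expression table and among the 12129 genes tested. The list was chosen from measured values of these libraries, in part: the low level of UPK1B and TMEM176B in edited 4-cell embryos, the lower level of UPK1B in 8-cell than in 4-cell controls, and the drop of ALDH1A1 between stages in edited embryos were known when it was drawn up. Differences between edited and control embryos are therefore given as a description, with no test read from them, and UPK1B, TMEM176B and ALDH1A1 are given no test of their own. Where a call or adjusted p-value of a member is given for that comparison or its change between stages, it describes the fit only. The same holds for members compared between stages, since those comparisons share the 4-cell libraries. Counts of calls over all 10 include these 3 and are descriptions from which nothing is read. Counts between stages are therefore given over the other 7, except where the dependence on processing is described. The question set for the list was whether epithelial-type RNA follows the fall of matrix-type RNA in edited embryos.

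The data are RNA sequencing libraries of Bos taurus embryos made by in vitro fertilisation of oocytes from slaughterhouse ovaries with frozen Holstein semen, each library from a pool of 5 embryos. The 4 groups were 4-cell control, 4-cell edited, 8-cell control and 8-cell edited embryos, with 2 libraries each. Edited embryos carry the edit A148G in RPL12, a gene of the large ribosomal subunit, and were made by injecting zygotes in the cytoplasm with PEmax, a prime editor, and a guide RNA. All embryos shared the same maturation, fertilisation and culture as far as the labels say. They do not say whether controls were injected, whether cumulus cells were stripped before collection, or what share of alleles was edited. The titles speak of base editing where the protocol speaks of prime editing, and the 4-cell samples carry the source name Oocytes, whereas their titles call them embryos. Nothing in the labels says that the 2 libraries of a group came from separate fertilisations, so p-values measure the spread between these libraries only.

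KRT8 and KRT18 are partners that build the intermediate filaments of simple epithelia, and KRT19 pairs with type II keratins in the same filaments. CDH1 (E-cadherin) is the calcium-dependent adhesion molecule of epithelia, and it holds blastomeres together when the mammalian embryo compacts. EPCAM is a calcium-independent adhesion glycoprotein of epithelia and of pluripotent cells. UPK1B is a tetraspanin that forms plaques in the urothelial surface. TMEM176A and TMEM176B are related membrane proteins of the MS4A-like family whose genes lie next to each other, as do KRT8 and KRT18 (RefSeq annotation of assembly ARS-UCD2.0). ALDH1A1 makes retinoic acid from retinaldehyde, and APOA1 is the main protein of high-density lipoprotein. In cattle the first epithelium of the embryo, the trophectoderm, forms after the stages sampled here, and keratins are among its markers.

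The libraries held 33527531 to 35122409 reads in genes, so 3 reads correspond to 0.0858 to 0.0899 CPM (reads per 1000000). RPL12 itself stood at 159 and 174 CPM in 4-cell controls, 27.5 and 33.6 in 4-cell edited, 96.3 and 97.6 in 8-cell controls, and 14.1 and 11.9 in 8-cell edited libraries. All 17 oocyte and early embryo markers found in the table, such as DPPA3, BTG4 and H1-8, had reads in every library, with a summed level of 19863 and 25732 CPM in 4-cell controls and 36586 to 54382 CPM in the other 6 libraries. Of the 17, 6 (35.3%) were called higher and 1 (5.88%) lower in edited 4-cell embryos, where 18.9% and 25.8% of all tested genes were. Those called higher include DPPA3 and BTG4 (1.95 and 1.30 on the log2 scale), and the 1 called lower was H1-8 (-0.69). Trophectoderm markers were low, with sums of 41.0 to 70.7 CPM over 11 genes, of which GATA2 was called higher in edited 4-cell embryos, at 17.6 ± 4.76 against 5.63 ± 2.03 CPM (SD, n = 2). Markers of cumulus and granulosa cells, the somatic cells around the oocyte, had their highest sums in 4-cell controls. Their sum over 22 genes was 1281 and 1651 CPM in 4-cell controls, 435 and 469 in 4-cell edited, 532 and 868 in 8-cell controls, and 439 and 450 in 8-cell edited libraries. Of 17 tested, 10 were called lower and 2 higher in edited 4-cell embryos, the latter including HAS2, which makes the hyaluronan of the expanding cumulus, at 128 ± 5.47 against 39.8 ± 22.0 CPM (SD, n = 2), while LHCGR had no read in 5 libraries and FOXL2 and AMHR2 had none in 4. Over all tested genes 25.8% were called lower and 18.9% higher at the 4-cell stage. In edited 8-cell embryos 5 of the 17 (29.4%) were called lower and 0 higher, where 14.5% and 1.08% of all tested genes were, and 12 were not called. STAR, a steroidogenic gene of the cumulus and granulosa list, ranged from 126 to 213 CPM over the 8 libraries. It was not called in edited against control embryos at either stage. Leukocyte markers summed to between 16.03 and 35.2 CPM in the 8 libraries. Whether such cells account for any value below was not tested, and in pooled embryos fewer cells of a type and less RNA per cell cannot be told apart.

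The 10 transcripts did not move together. UPK1B, TMEM176A, TMEM176B, KRT8, KRT18 and APOA1 were lower in each of the 4 edited libraries than in each of the 4 control libraries. EPCAM and CDH1 were higher in each of the 4 edited libraries than in each control library. KRT19 and ALDH1A1 took opposite sides in 4-cell and 8-cell embryos. Over all tested genes, 19.6% lay below and 9.98% above in that way.

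**Figure D1:**
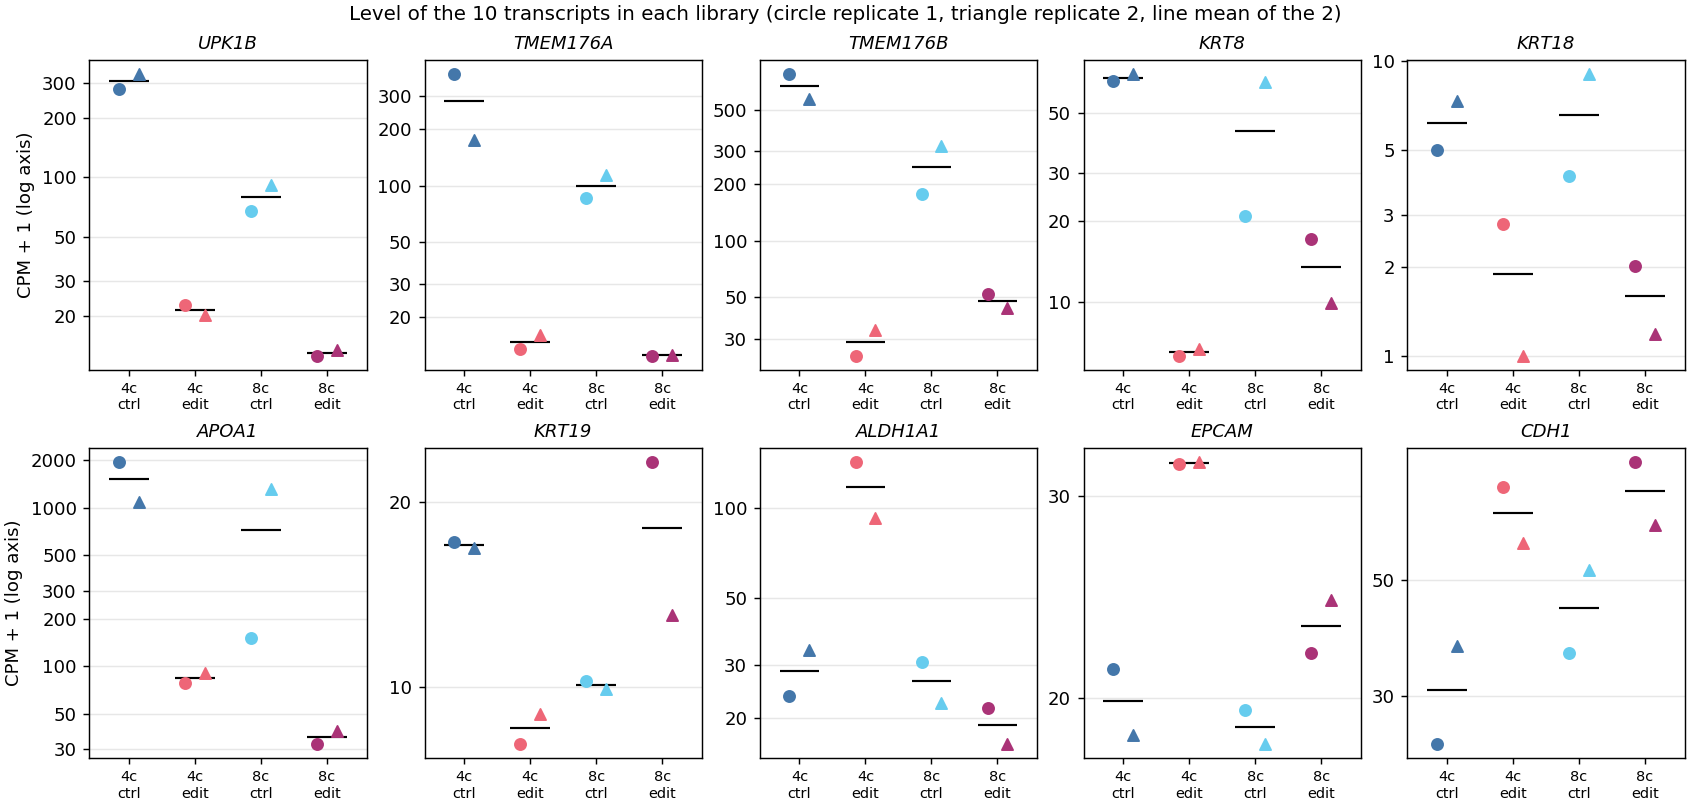
CPM + 1 on a log axis for each of the 10 transcripts in the 4 groups (4c and 8c, 4-cell and 8-cell; ctrl, control; edit, edited). Circles are replicate 1, triangles replicate 2 and lines the mean of the 2. The edited libraries lie below all controls in the 6 panels from UPK1B to APOA1 and above all controls for EPCAM and CDH1.

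At the 4-cell stage 7 of the 10 were called lower and 2 higher in edited embryos (limma adjusted p-value under 0.05), where 25.8% of all tested genes were called lower and 18.9% higher. In 8-cell embryos 6 were called lower, against 14.5% of all tested genes, and 0 higher, against 1.08%. Of the members, 2 had an unadjusted p-value under 0.05 in the higher direction at the 8-cell stage, and edgeR and DESeq2 also called 0 higher. Since the list was drawn up with such differences in view, nothing is read from these counts. With libraries quantile normalized, the median of all genes shifted from -0.02 to 0.23 in 4-cell and from 0.00 to 0.20 in 8-cell embryos. The share of higher genes among all calls then went from 42.2% to 54.9% and from 6.91% to 23.4%, and the members split into 3 higher and 6 lower, and 1 higher and 6 lower. Each of the 10 kept its direction at both stages under quantile normalization, edgeR and DESeq2.

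The 3 surface membrane transcripts were far lower in edited embryos at both stages. UPK1B stood at 279 and 331 CPM in 4-cell controls and at 21.8 and 19.2 in 4-cell edited embryos. In 8-cell controls it had 66.5 and 90.1 CPM, and in 8-cell edited embryos 11.7 and 12.4. The groups are thus apart at both stages, with a control mean 14.9 times the edited mean at the 4-cell stage and 6.50 times at the 8-cell stage. On the log2(CPM + 1) scale, used for all differences below, the edited minus control difference was -3.83 (SE 0.254) and then -2.59 (SE 0.254), and 48 of 12129 genes, itself included, were as low or lower at the 4-cell stage.

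TMEM176A stood at 393 and 174 CPM in 4-cell controls, 12.4 and 14.9 in 4-cell edited, 84.9 and 113 in 8-cell controls, and 11.4 and 11.4 in 8-cell edited embryos. Its 4-cell control libraries differ by 2.26 times, whereas the 4-cell group means differ by 20.8 times. TMEM176B stood at 773 and 571 CPM in 4-cell controls, 23.3 and 32.4 in 4-cell edited, 176 and 319 in 8-cell controls, and 50.9 and 42.6 in 8-cell edited embryos. Its 4-cell difference of -4.54 (SE 0.285) was among the 10 lowest of all tested genes, and that of TMEM176A, -4.17 (SE 0.328), among the 21 lowest. At the 8-cell stage the differences were -2.32 (SE 0.285) and -2.99 (SE 0.328).

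The proportion between these neighbouring genes was not fixed. The ratio of TMEM176A to TMEM176B, which is compared here only between libraries, was 0.508 and 0.305 in 4-cell controls, 0.529 and 0.460 in 4-cell edited, 0.482 and 0.354 in 8-cell controls, and 0.224 and 0.268 in 8-cell edited embryos. The 8-cell edited libraries thus had the 2 lowest ratios of the 8. TMEM176B was higher there than in 4-cell edited embryos while TMEM176A was not. At the 8-cell stage the control mean was 8.66 times the edited mean for TMEM176A and 5.29 times for TMEM176B.

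Other tetraspanins, uroplakins and MS4A proteins were divided. Of 34 listed genes besides the members, 20 were tested. In edited 4-cell embryos 10 (50.0%) were called lower and 4 (20%) higher, where 25.8% and 18.9% of all tested genes were. The median difference of the list was -1.12 against -0.02 over all tested genes. At the 8-cell stage 7 (35%) were called lower and 0 higher, where 14.5% and 1.08% of all tested genes were. Another 13 of the list were not called, and its median was -0.53. CD63, a tetraspanin of late endosomes, stood at 2688 and 1883 CPM in 4-cell controls against 314 and 358 in edited embryos (difference -2.74, SE 0.218, limma adjusted p-value 6.43e-07). CD81, a tetraspanin of the plasma membrane, stood at 354 ± 141 against 39.8 ± 4.18 CPM (SD, n = 2; difference -3.07, SE 0.277, limma adjusted p-value 1.20e-06). In the other direction TSPAN7 stood at 107 ± 9.28 CPM in edited and 55.5 ± 19.4 CPM in control 4-cell embryos (SD, n = 2; difference 0.98, SE 0.259, limma adjusted p-value 0.00602). TSPAN5 stood at 286 ± 92.6 against 154 ± 19.9 CPM (SD, n = 2; difference 0.86, SE 0.246).

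The 3 keratins behaved differently from each other. Their calls between edited and control embryos, kept or lost, describe the fit and are not read as tests. KRT8 had 64.6 and 68.6 CPM in 4-cell controls, 5.35 and 5.70 in 4-cell edited, 19.9 and 64.3 in 8-cell controls, and 16.1 and 8.96 in 8-cell edited embryos. The 4-cell groups are far apart, whereas at the 8-cell stage the lower control library is close to the higher edited library. The difference was -3.37 (SE 0.429) for 4-cell and -1.499 (SE 0.429) for 8-cell embryos. The 8-cell value was -0.68 without the second 8-cell control library and -1.11 without the second 8-cell edited library, and its call was lost in both. The call was also lost without the filter on low values (adjusted p-value 0.105) and without either 4-cell edited library (0.0537 and 0.0528).

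KRT18, its filament partner, was weakly expressed, with 138 and 216 reads in 4-cell controls, 62 and 0 in 4-cell edited, 108 and 272 in 8-cell controls, and 34 and 6 in 8-cell edited libraries. In CPM these are 4.00 and 6.33, 1.79 and 0, 3.09 and 8.04, and 1.02 and 0.180, where the library with no read allows up to 0.0877 CPM. Every edited library was below every control, but the 2 libraries within each edited group differed severalfold. The differences were -1.86 (SE 0.523) and -1.98 (SE 0.523). They were called by limma at both stages but not by edgeR or DESeq2. Without 4-cell edited replicate 2, the library with no read, the 4-cell difference was -1.12 and was not called. It also lost its call without the second 4-cell control library (-1.58), and the 8-cell difference lost it without the second 8-cell control (-1.41) or edited (-1.59) library, and without the filter on low values (adjusted p-value 0.0742).

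The ratio of KRT8 to KRT18 was 16.2 and 10.8 in 4-cell controls, 6.43 and 7.99 in 8-cell controls, 2.98 in the first 4-cell edited library, and 15.9 and 49.8 in the 8-cell edited libraries. It rests on 62, 34 and 6 reads of KRT18 in the last 3, and with 1 CPM added to both genes it was 2.27 and 6.70 in 4-cell edited and 8.49 and 8.44 in 8-cell edited libraries. Reads of KRT8, KRT18 and KRT19 are uncertain where processed copies of these genes share sequence with them, since the counting may have split such reads.

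KRT19 changed sign between stages. It stood at 16.2 and 15.9 CPM in 4-cell controls and at 7.09 and 8.04 in 4-cell edited embryos, then at 9.24 and 8.93 in 8-cell controls and at 22.2 and 12.1 in 8-cell edited embryos. Edited embryos were thus lower in both libraries at the 4-cell stage (difference -0.99, SE 0.349) and higher in both at the 8-cell stage (0.79, SE 0.349). The 4-cell difference was called by limma but not by edgeR, with quantile normalization, without the filter on low values, or without any 1 of the 4 libraries compared.

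The adhesion genes were higher in every edited than in every control library. In the main fit limma called CDH1 at the 4-cell stage only and EPCAM at neither stage. These calls are a description and are not read as tests. CDH1 stood at 23.3 and 36.3 CPM in 4-cell controls, 74.2 and 57.8 in 4-cell edited, 35.2 and 51.1 in 8-cell controls, and 82.7 and 62.7 in 8-cell edited embryos. The lowest edited library was above the highest control, with differences of 1.14 (SE 0.292) and 0.75 (SE 0.292). With quantile normalization the 8-cell difference was 0.92 (SE 0.273) and was called. Without the first 4-cell control library, or without the first 4-cell edited library, the 4-cell difference was 0.84 and 0.97 and lost its call. EPCAM stood at 20.2 and 17.6 CPM in 4-cell controls, 31.0 and 31.1 in 4-cell edited, 18.5 and 17.3 in 8-cell controls, and 20.9 and 23.3 in 8-cell edited embryos. Its differences were small, 0.69 (SE 0.281) and 0.29 (SE 0.281). The 4-cell value was not called by limma with the filter at 1 CPM but was called by edgeR, by DESeq2, and with quantile normalization.

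**Figure D2:**
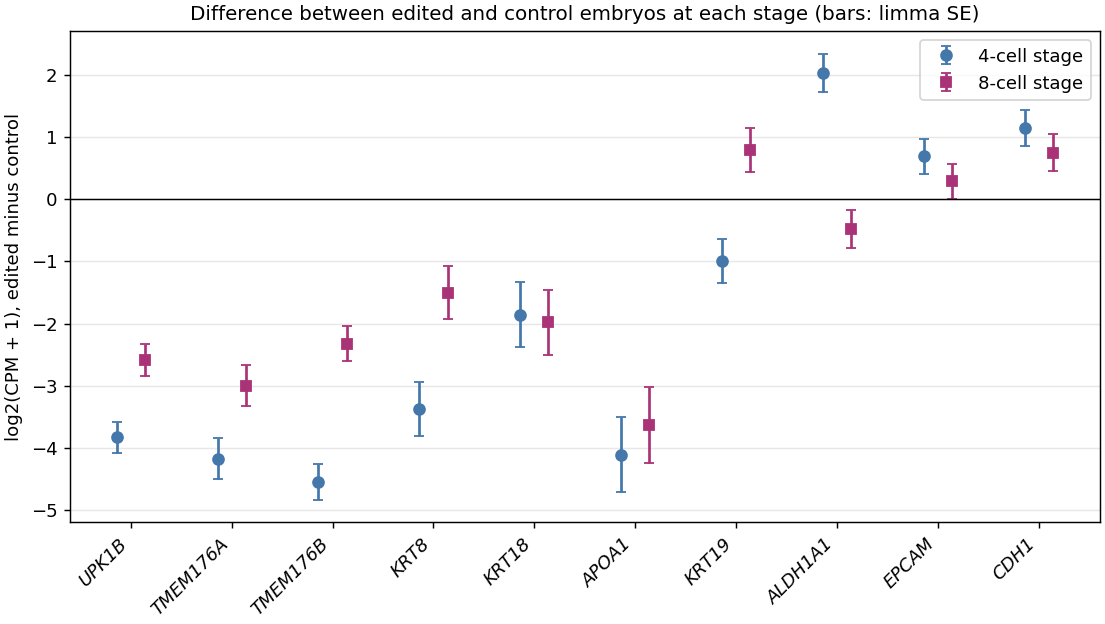
Edited minus control difference in log2(CPM + 1) for each transcript at the 4-cell stage (circles) and the 8-cell stage (squares), with limma's SE as bars. UPK1B, TMEM176A, TMEM176B and KRT8 lie closer to 0 at the 8-cell stage, KRT19 and ALDH1A1 lie on opposite sides of 0, and EPCAM and CDH1 lie above 0.

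A wider list of epithelial and junction genes was set beside them. Of 59 listed genes 51 are in the table and 39 were tested. At the 4-cell stage 12 of the 39 (30.8%) were called higher and 3 (7.69%) lower in edited embryos. Over all tested genes 18.9% were called higher and 25.8% lower. The median difference of the list was 0.27 against -0.02 over all tested genes. The 12 were TJP1, MAL2, PKP4, CRB3, CLDN23, CTNND1, MARVELD2, PATJ, PARD6B, OCLN, PALS1 and ESRP1. They include scaffold proteins of tight junctions (TJP1, PATJ), tight junction membrane proteins (OCLN, MARVELD2, CLDN23) and polarity proteins (CRB3, PARD6B, PALS1). The 3 called lower were JUP, the junction plaque protein plakoglobin, at -2.55, the protease inhibitor SPINT2 at -1.58 and the adhesion molecule F11R at -1.497.

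ESRP1, a splicing regulator of epithelial cells, stood at 50.2 and 77.5 CPM in 4-cell controls against 255 and 236 in 4-cell edited embryos (difference 1.96, SE 0.242, limma adjusted p-value 1.36e-05). PALS1 stood at 188 and 300.3 CPM against 676 and 721 (difference 1.55, SE 0.234, limma adjusted p-value 8.08e-05). In both genes the control and edited libraries are well apart. In 8-cell controls ESRP1 stood at 128 and 106 CPM and PALS1 at 482 and 394, above the 4-cell controls, and in 8-cell edited embryos ESRP1 stood at 140 and 153 CPM and PALS1 at 572 and 549. The 8-cell differences were 0.32 and 0.36 and were not called (limma adjusted p-values 0.431 and 0.352). The change of the effect between stages was called for ESRP1 (-1.63, limma adjusted p-value 0.0260) and not for PALS1 (-1.19, 0.0561). At the 8-cell stage 3 of the 39 were called higher (CLDN12, RAB25 and PROM1) and 3 lower (DSG2, JUP and DSC2), with a median of 0.17. Each is 7.69% of the list, where 1.08% of all tested genes were called higher and 14.5% lower. The desmosomal cadherins DSG2 and DSC2 differed by -2.19 and -1.42 there.

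ALDH1A1 was high in a single group. It stood at 22.6 and 32.6 CPM in 4-cell controls, 142 and 92.1 in 4-cell edited, 29.6 and 21.5 in 8-cell controls, and 20.5 and 15.4 in 8-cell edited embryos. The 4-cell edited libraries lie above all others, and the 8-cell edited libraries lie below all others, with the higher of them close to the lower 8-cell control. The difference was 2.03 (SE 0.308) at the 4-cell stage, where 54 genes, itself included, were as high or higher, and -0.48 (SE 0.308) at the 8-cell stage.

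Other genes of retinoid handling were set beside it. Of 34 listed 22 were tested. In edited 4-cell embryos 8 (36.4%) were called lower and 2 (9.09%) higher, where 25.8% and 18.9% of all tested genes were. The list had a median of -0.41. RBP4, the retinol carrier of plasma, stood at 225 ± 68.9 CPM in 4-cell controls against 27.2 ± 4.39 CPM in edited embryos (SD, n = 2; difference -2.98, SE 0.269, limma adjusted p-value 1.20e-06). DHRS4, a short-chain reductase, stood at 63.5 ± 2.04 against 5.07 ± 1.89 CPM (SD, n = 2; difference -3.45, SE 0.324, limma adjusted p-value 1.36e-06). The 2 called higher were FABP5, a fatty acid and retinoic acid carrier, at 508 ± 56.7 against 203 ± 11.1 CPM (SD, n = 2; difference 1.32, SE 0.225), and RDH10, a retinol dehydrogenase, at 47.7 ± 6.79 against 26.5 ± 5.00 CPM (SD, n = 2; difference 0.83, SE 0.270). At the 8-cell stage 5 (22.7%, where 14.5% of all tested genes were) were called lower, among them STRA6, the cell surface receptor for RBP4, at -3.14. The median of the list was 0.05 there, with 11 of 22 genes below 0.

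APOA1 differed widely between the libraries of the 8-cell control group. It stood at 1933 and 1086 CPM in 4-cell controls, 77.7 and 89.6 in 4-cell edited, 149 and 1303 in 8-cell controls, and 31.5 and 38.3 in 8-cell edited embryos. All edited libraries were below all controls, and the 2 libraries of the 8-cell control group differ by 8.73 times. The difference was -4.10 (SE 0.609) in 4-cell and -3.63 (SE 0.609) in 8-cell embryos. The 8-cell value was -2.07 without the second 8-cell control library and -5.19 without the first.

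Of 32 other genes of apolipoproteins and lipoprotein handling 19 were tested. In edited 4-cell embryos 10 (52.6%) were called lower and 1 (5.26%) higher, where 25.8% and 18.9% of all tested genes were. The list had a median of -0.78. SCARB1, the receptor that takes up cholesterol from high-density lipoprotein, stood at 71.0 and 57.8 CPM in 4-cell controls, 4.05 and 2.43 in 4-cell edited, 11.1 and 34.9 in 8-cell controls, and 0.299 and 1.498 in 8-cell edited embryos. Its difference was -3.97 (SE 0.476, limma adjusted p-value 1.02e-05) at the 4-cell stage. CLU, a secreted chaperone carried on lipoproteins, stood at 220.5 ± 40.1 against 38.3 ± 6.02 CPM (SD, n = 2; difference -2.49, SE 0.240, limma adjusted p-value 1.59e-06). In 8-cell embryos CLU stood at 97.7 ± 16.4 CPM in controls and 89.98 ± 1.39 CPM in edited embryos (SD, n = 2; difference -0.11, limma adjusted p-value 0.814), and the change of its effect between stages was called (2.38, limma adjusted p-value 0.00681). LRP2, a large endocytic receptor, stood at 114 ± 8.94 CPM in edited and 59.8 ± 30.5 CPM in control embryos (SD, n = 2; difference 1.01, SE 0.295, limma adjusted p-value 0.0108). At the 8-cell stage 5 of the list (26.3%) were called lower, where 14.5% of all tested genes were. The median of the list was -0.31.

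The stages were compared within each condition. Each comparison shares its 4-cell libraries with the edited against control difference that was in view when the list was drawn up. Calls and p-values of members are therefore a description here too, and no test is read from them. In controls 1 of the 7 members counted, TMEM176A, was called lower in 8-cell than in 4-cell embryos, where 6.27% of all tested genes were. None of the 7 was called higher, where 2.75% of all tested genes were. None of the 7 had an unadjusted p-value under 0.05 in the higher direction, and edgeR and DESeq2 also called 0 higher. The count of lower members was 0 without the first 4-cell or the first 8-cell control library, 2 without the second 4-cell control library and 3 without the second 8-cell control library. TMEM176A went from a mean of 283 ± 155 to 98.9 ± 19.8 CPM (SD, n = 2), a difference of -1.41 (SE 0.328, limma adjusted p-value 0.0214). Its call was lost with edgeR (adjusted p-value 0.0624), with only the control libraries fitted (0.0718), and without the filter on low values (0.0836). Without the first 4-cell control library the difference was -0.82, and without the first 8-cell control library -1.20, with adjusted p-values of 0.249 and 0.219. UPK1B differed by -1.96 (SE 0.254) and TMEM176B by -1.48 (SE 0.285). These are given without a test, the value of UPK1B being among those that placed it on the list.

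The other members, UPK1B and TMEM176B apart, were not called in controls in the main fit. APOA1 differed by -1.71 (SE 0.609, limma adjusted p-value 0.0805). Without the first 8-cell control library APOA1 differed by -0.15 and without the second by -3.27, where it was called. It was called too without the second 4-cell control library (-2.13). KRT8 differed by -0.87 (SE 0.429, limma adjusted p-value 0.188), by -0.05 without the first 8-cell control library and by -1.70 without the second, where it was called. KRT19 differed by -0.76 (SE 0.349, limma adjusted p-value 0.161), CDH1 by 0.53 (SE 0.292, limma adjusted p-value 0.242), EPCAM by -0.07 (SE 0.281) and KRT18 by 0.01 (SE 0.523). The 4-cell control libraries enter both this comparison and that with 4-cell edited embryos.

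In edited embryos 0 of the 7 members counted were called lower at the 8-cell stage, where 3.73% of all tested genes were, and 0 higher, where 1.45% were. At an unadjusted p-value under 0.05 there were 0 lower and 2 higher, edgeR called 0, and DESeq2 called 0 lower and 1 higher. ALDH1A1 differed by -2.62 (SE 0.308), and 4 of 12129 genes, itself included, were as low or lower. That value placed it on the list and is a description. KRT8 and KRT19 both had an 8-cell edited mean 2.27 times the 4-cell edited mean, with higher values in both 8-cell libraries. Neither passed in limma (adjusted p-values 0.189 and 0.0986), and KRT19 passed in DESeq2 (adjusted p-value 0.0423). APOA1 differed by -1.24 (SE 0.609, limma adjusted p-value 0.253), and was called when only the 4 edited libraries were fitted (adjusted p-value 0.00229). It was also called when the first or the second 8-cell control library was left out of the shared spread (adjusted p-values 0.0119 and 0.0130).

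The difference of the editing effect between stages (the 8-cell difference minus the 4-cell difference) was fitted for all genes, and 3.96% were called. It contains the 4-cell difference between edited and control embryos, which was in view when the list was drawn up. The values, calls and p-values of members are therefore a description, and no test is read from them. Of the 7 members other than UPK1B, TMEM176B and ALDH1A1 limma called 0, with 3 at an unadjusted p-value under 0.05. KRT19 had a value of 1.79 (SE 0.494, limma adjusted p-value 0.0545) and KRT8 of 1.87 (SE 0.607, limma adjusted p-value 0.0847). TMEM176A had 1.18 (SE 0.464, limma adjusted p-value 0.141), with 0.59 without the first 4-cell control library and 1.76 without the second, where it was called. KRT8 had 1.05 without the first 8-cell control library and 2.70 without the second, and APOA1 had -1.09 and 2.03 in the same order. Both were called without the second library only. DESeq2 called KRT19 and KRT8 (adjusted p-values 0.00765 and 0.0346), limma with a filter at 5 CPM called KRT19 (0.0455), and edgeR called neither. APOA1 (0.47, SE 0.862), KRT18 (-0.12, SE 0.739), EPCAM (-0.40, SE 0.398) and CDH1 (-0.39, SE 0.414) had adjusted p-values of 0.581 to 0.945.

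The matrix genes named in the question were listed apart from the members, and 33 of 43 were tested. At the 4-cell stage 21 (63.6%) were called lower and 2 (6.06%) higher in edited embryos, where 25.8% and 18.9% of all tested genes were. At the 8-cell stage 23 (69.7%) were called lower, where 14.5% of all tested genes were. The median difference of the matrix genes was -1.43 in 4-cell and -1.91 in 8-cell embryos. The 10 members had medians of -2.61 and -1.74. The low 4-cell values of UPK1B and TMEM176B helped place them on the list. The medians of the members are therefore a description, and no order against the matrix genes is read from them. No test was made between the lists.

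Summed over 42 matrix genes, 4-cell controls held 8329 and 11625 CPM, 4-cell edited embryos 2273 and 3136, 8-cell controls 5402 and 5472, and 8-cell edited embryos 730.0 and 1382 CPM. TAGLN, an actin-binding protein of smooth muscle and stroma, stood at 981 and 734 CPM in 4-cell controls against 99.8 and 108 in edited embryos (difference -3.02, SE 0.237, limma adjusted p-value 6.43e-07). TIMP2, an inhibitor of matrix proteases, stood at 423 ± 124 against 37.4 ± 10.5 CPM (SD, n = 2; difference -3.46, SE 0.273). The basement membrane protein NID2 and the microfibril protein FBN1 were called higher, at 1.04 (SE 0.254) and 0.87 (SE 0.306).

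Within edited embryos the matrix list had 12 of 33 genes (36.4%) called lower in 8-cell than in 4-cell embryos, where 3.73% of all tested genes were. The median of the list was -0.80 against -0.04 over all tested genes. In controls 8 of the 33 (24.2%) were called lower, where 6.27% of all tested genes were, with a median of -0.58 against 0.01. The change of the effect between stages was called for 1 of the 33 (3.03%), where 3.96% of all tested genes were. Of the members lower in edited libraries, TMEM176B and KRT8 had higher values in both 8-cell than in both 4-cell edited libraries, UPK1B, TMEM176A and APOA1 had lower values in both, and KRT18 overlapped. The 3 members higher in 4-cell edited embryos, CDH1, EPCAM and ALDH1A1, lie on the other side of 0 from the matrix median at that stage.

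**Figure D3:**
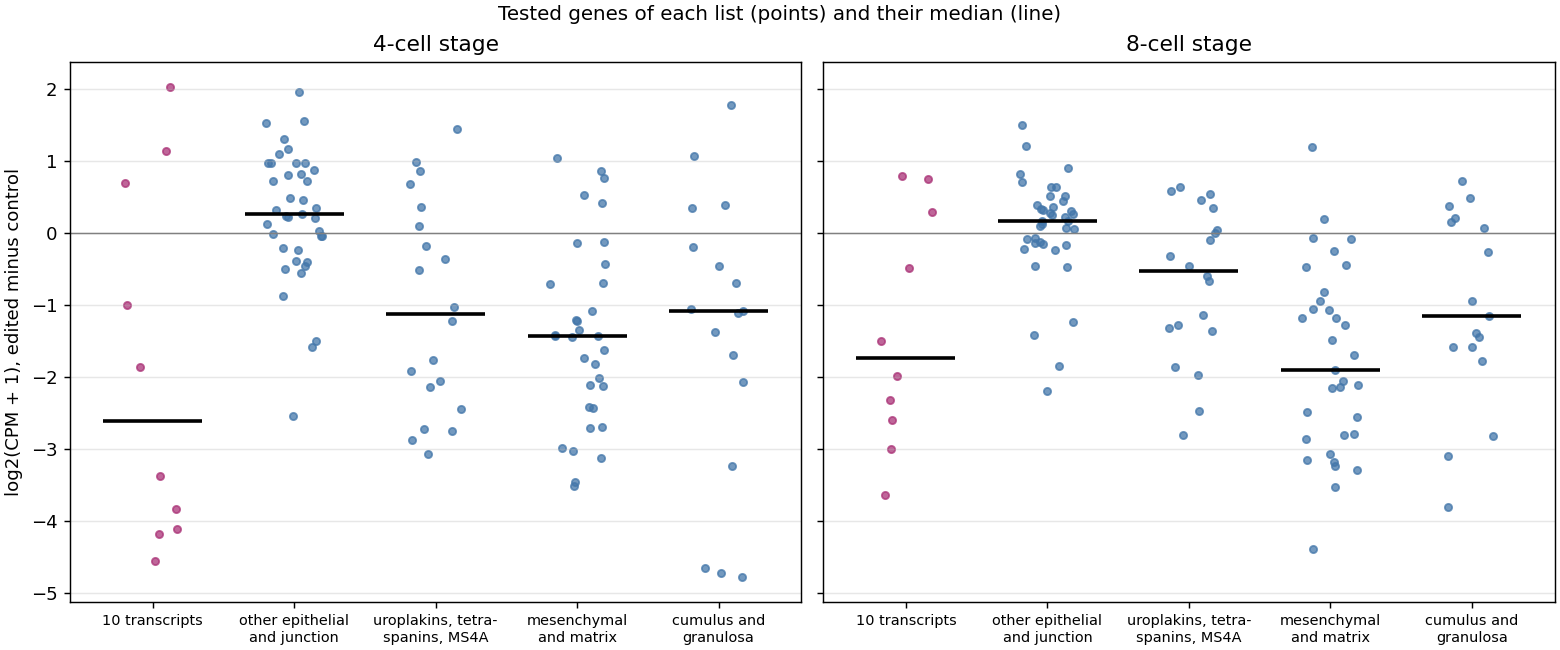
Edited minus control difference in log2(CPM + 1) of each tested gene (points) and the list's median (line) at the 4-cell and the 8-cell stage. The 10 transcripts spread from -4.54 to 2.03 at the 4-cell stage, the median of the other epithelial and junction genes lies just above 0, and that of matrix genes lies at -1.43 and -1.91.

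The 2 libraries of a group offer a comparison that the choice of members did not use. In 8-cell controls the second library exceeded the first by 3.12 for APOA1, by 1.65 for KRT8, by 1.14 for KRT18 and by 0.85 for TMEM176B on the log2 scale. Gaps as large as that of APOA1, in either direction, were found for 4 of the 12129 tested genes, APOA1 included, and as large as that of KRT8 for 123. The gap was 0.53 for CDH1, 0.43 for UPK1B and 0.41 for TMEM176A, near 0 for KRT19 (-0.04) and EPCAM (-0.10), and negative for ALDH1A1 (-0.45). The median over all tested genes was 0.10.

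The lists differed in the same gap, with no test made between them. The tetraspanin, uroplakin and MS4A list had a median gap of 0.38 with 18 of 20 tested genes higher in the second library, and the apolipoprotein and lipoprotein list 0.34 with 13 of 19. The cumulus and granulosa list had 0.55 with 13 of 17, the matrix list 0.32 with 21 of 33, and the junction list -0.01 with 19 of 39, where 59.4% of all tested genes were higher. The steroidogenic enzymes HSD3B1 and CYP11A1 stood at 40.7 and 176 CPM and at 29.1 and 133 CPM in the first and second 8-cell control library, and FST, which encodes follistatin, at 7.75 and 66.2 CPM. FST was chosen after its values were seen. Its profile lies nearest to that of APOA1 among the genes searched, a distance that includes this gap, so nothing is read from their likeness here. HAS2 stood at 74.9 and 88.8 CPM, and 4 of the 17 were lower in the second library. The steroidogenic gene STAR of the same list ranged only from 126 to 213 CPM over all libraries. The summed level of matrix genes was 5402 and 5472 CPM. The part of other cell types in the gap of APOA1 and KRT8 was not tested.

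**Figure D4:**
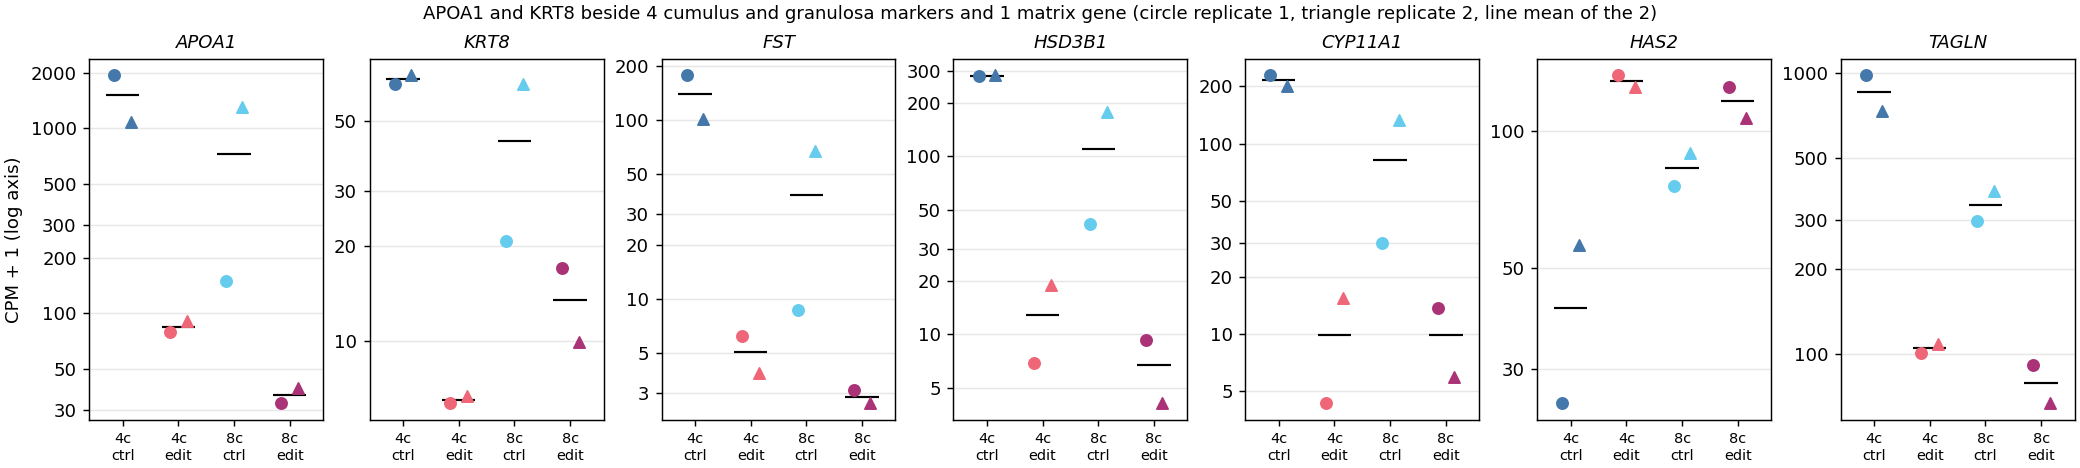
CPM + 1 on a log axis for APOA1, KRT8, the cumulus and granulosa markers FST, HSD3B1, CYP11A1 and HAS2, and the matrix gene TAGLN, with groups and symbols as for the 10 transcripts. In 8-cell controls APOA1 stands at 149 and 1303 CPM and FST at 7.75 and 66.2, while HAS2 stands at 74.9 and 88.8 and TAGLN at 296 and 379. FST was chosen after its values were seen.

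In 4-cell controls the order was another. The first library exceeded the second for TMEM176A (gap -1.17), APOA1 (-0.83) and TMEM176B (-0.44), while CDH1 (0.62), KRT18 (0.55) and ALDH1A1 (0.51) were higher in the second. HSD3B1 stood at 283 and 283 CPM there and CYP11A1 at 227 and 201 CPM, and the cumulus and granulosa list had a median gap of 0.00. In 4-cell edited embryos the gap was at most 0.62 in size for every member but KRT18 (-1.48), which rests on 62 and 0 reads. In 8-cell edited embryos KRT19 (-0.83), KRT8 (-0.78) and KRT18 (-0.77) were all lower in the second library, against a median of -0.06 over all tested genes.

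Likeness over the 8 libraries was measured as the root mean square difference of log2(CPM + 1) profiles, each centred on its own mean, so that 0 is identical. Among the members TMEM176A and TMEM176B were nearest (0.42), then EPCAM and CDH1 (0.49), and UPK1B and TMEM176A (0.49), while KRT8 and KRT18 lay at 0.71 and CDH1 and APOA1, the farthest pair, at 2.69. The points share depth and the same 4 groups, and no test is attached to them.

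Among the 7427 other genes averaging 10 CPM or more, those nearest to each member differed in kind. UPK1B lay nearest to TMED1 (0.24) and CCND2 (0.26). TMEM176A lay nearest to IFI6 (0.25) and PSMB10 (0.27), and TMEM176B to IFI27 (0.25) and ENO1 (0.31). IFI6 and IFI27 are induced by interferon, PSMB10 is a subunit of the immunoproteasome and ENO1 is the glycolytic enzyme enolase. KRT8 lay nearest to JMJD6 and GAPDH (both 0.31), and KRT19 to PPP4C (0.18) and HEY1 (0.23). APOA1 lay nearest to FST (0.41) and SCARB1 (0.49), and ALDH1A1 to RGS2 (0.48) and NADK2 (0.54). CDH1 lay nearest to BOC (0.07) and STRIP2 (0.14), and EPCAM to RCHY1 (0.07) and FBXO4 (0.08), but small distances are easier to reach for genes that vary little. The SD of the profile was 0.33 for EPCAM and 0.60 for CDH1, against 2.38 for APOA1. KRT18, with a mean of 3.06 CPM, was left out.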

How the data were processed

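RNA was measured in 8 libraries, 2 for each of 4 groups, grouped by sample title. The submitters' processing notes name Trim Galore 0.6.7 (a read trimmer), HISAT2 2.2.1 (an aligner) and featureCounts 2.0.1 (a read counter). The genome build, the annotation, the scaling and the use of strand in counting are not given in the sources used here. The deposited values are CPM, although the table is named for read counts: the columns sum to between 992528 and 1007024, and in each library 100% of the values above 0 equal a whole number of steps (tolerance 0.05 of a step), 1 step being 1 read, so reads could be recovered. The table has 12 value columns, and the 4 that match no sample given here were not used. By their names these 4 would add 1 library to each group.

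Differences were tested with limma 3.58.1 (R 4.3.3), which modelled the variance as a trend on intensity, for log2(CPM + 1). The 12129 genes averaging 1 CPM or more over the 8 libraries were tested, with 1 mean per group and all 8 libraries in the fit. P-values were adjusted over all tested genes by the Benjamini-Hochberg method and called under 0.05. The log2(CPM + 1) scale understates changes of weak genes such as KRT18. Alternatives were pseudocounts of 0.25 and 5 CPM, other filters on low values, edgeR 4.0.16 and DESeq2 1.42.0 on recovered reads, quantile normalization, a replicate block, only the libraries compared, and leaving out each library. The limma procedure was run on simulated data before use, with the same dispersion for every gene and changes only in genes of 10 CPM or more. That run cannot speak for weak genes such as KRT18, nor for spread that differs between genes.

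The members and all gene lists were chosen with earlier results of these data known. Named besides the members are, from each list, the called genes with the smallest p-values at the 4-cell stage and a mean of at least 10 CPM, at most 2 per direction, and the 2 nearest profiles per member. Single genes named outside that rule (STRA6, DSG2, DSC2, JUP, F11R, CLDN12, RAB25, PROM1, FST, STAR, LHCGR, FOXL2, AMHR2, and the list of the 12 higher junction genes) were chosen after their values were seen.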

Additional observations from a re-analysis of the deposited data

Results flagged for a closer look

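The edited against control effect took opposite directions at the stages, in every library, for KRT19 and ALDH1A1. For KRT19 the difference of the effect, 8-cell minus 4-cell, was 1.79 on the log2 scale (SE 0.494, limma adjusted p-value 0.0545, so it did not pass). For ALDH1A1 it was -2.51 (SE 0.436). TMEM176B was lower in edited embryos at both stages, and its difference of the effect was 2.22 (SE 0.403). No test is read from this difference for any member, since differences between edited and control embryos enter it. ALDH1A1 and TMEM176B passed in the fit over all genes, but values that enter this difference helped place them on the list. Neither passed without the filter on low values, without either 4-cell edited library or without the first 8-cell control library. TMEM176B also missed with edgeR and without the first 8-cell edited library, and ALDH1A1 without the second 8-cell edited library.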

How the results depend on the processing

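No member reversed its edited minus control direction at either stage under the 17 alternatives in which it was tested, and 9 and 6 members were called in the 4-cell and 8-cell comparison as reported, against 7 to 9 and 4 to 6 when 1 library was left out. Between stages in controls, where 3 were called, the count was 0 without the filter on low values, 1 with edgeR, 1 with only the libraries compared, and 1 to 5 when 1 library was left out. In edited embryos, where 1 was called, it was 3 with DESeq2, 2 with only the libraries compared, and 1 to 2 when 1 library was left out. For the difference between stages, where 2 were called, it was 0 without the filter, 1 with edgeR, 5 with DESeq2, and 0 to 4 when 1 library was left out. Member counts in this section are over all 10 and include UPK1B, TMEM176B and ALDH1A1, so nothing is read from them. Of the other 7 as reported, 1 was called in controls (lower), 0 in edited embryos and 0 for the difference. DESeq2 called 1 lower, 1 higher and 2 higher in the same order, and edgeR called 0. Of all tested genes 6.27% were called lower and 2.75% higher in controls, 3.73% and 1.45% in edited embryos, and 3.96% for the difference. Over all genes, stage calls in controls numbered 1094 as reported, 1 without the filter, 86 with edgeR and 161 with only the libraries compared. In edited embryos they numbered 628, then 17, 324 and 1149, and 1286 with DESeq2. The difference between stages had 480 calls, 0 without the filter, 18 with edgeR and 1035 with DESeq2. When 1 library was left out, these counts ran from 13 to 2114 in controls, from 7 to 966 in edited embryos, from 0 to 1396 for the difference, and from 1021 to 2063, against 1895 as reported, for edited against control 8-cell embryos. The cause of these changes was not tested. With quantile normalization the share of higher genes among the stage calls went from 30.5% to 46.3% in controls and from 28.0% to 42.3% in edited embryos, and edgeR took that of the difference from 49.4% to 33.3%.

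Same-numbered libraries did not deviate together: their deviations correlated at -0.30 to 0.11 across the 6 pairs of groups, so the numbers are not taken to pair them. Library names also carry a letter. It is D for every second library, and for the first A in 4-cell controls, B in 8-cell controls and C in both edited groups. Only the edited groups share both letters, and their deviations correlated at 0.02. No block by letter was fitted, so a pairing by letter was not tested. A replicate block called 9 and 6 members in edited against control embryos, 4 between stages in controls (APOA1 was added, adjusted p-value 0.0452), 1 in edited embryos and 2 for the difference between stages. The first and second 8-cell control library were also exchanged within the block, chosen after seeing the data, and 3 members and 1690 genes were then called between stages in controls, against 985 genes with the block as numbered.

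Signs turned only in comparisons between stages that did not pass. With a pseudocount of 0.25 CPM, KRT18 was -0.0073 in controls, 0.045 in edited embryos and 0.053 for the difference, and quantile normalization gave it 0.063 in edited embryos. When 1 library was left out, KRT18 ran from -0.57 to 0.58 in controls, from -0.86 to 0.62 in edited embryos and from -0.86 to 0.62 for the difference. In controls EPCAM ran from -0.17 to 0.023 and ALDH1A1 from -0.36 to 0.15, and in edited embryos CDH1 ran from -0.063 to 0.33. The difference of APOA1 was -0.23 with edgeR and -0.15 with DESeq2, and ran from -1.09 to 2.03. KRT18 is the member most limited by depth. The labels name no molecular identifiers for the amplified cDNA, so limits from read numbers cover counting error only.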
